A study of Bos taurus with 179 samples.

Results

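The genes described here are 70 centrosome and cilium genes of growing bovine oocytes with symbols from A to C: the Bardet-Biedl syndrome genes (BBS), the numbered centrosomal protein genes (CEP), the centrins (CETN), the cilia and flagella associated genes (CFAP, without CFAP20), the cytoskeleton-associated protein genes (CKAP), CLUAP1 and CNTROB. They were chosen by symbol from the study's supplementary list of genes expressed in all size groups, of which 1997 entries were read here, and they are 70 of the 21218 gene IDs of the count table. The prefixes found 7 BBS, 32 CEP, 3 CETN, 22 CFAP and 4 CKAP genes besides CLUAP1 and CNTROB, and no gene called ALMS1. Because the list required expression in every group, the presence of these transcripts is part of the choice. The rule used no measure of change with oocyte size, but the families were picked with earlier results of these data known.

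Centrioles are barrels of microtubules that organise the centrosome and, when docked at the cell surface, template the cilium. Mammalian oocytes lose their centrioles during oogenesis and later build the meiotic spindle from acentriolar microtubule organising centres and chromatin-dependent pathways, yet they carry transcripts for many centriolar proteins into the embryo. The BBSome is a coat complex that moves membrane proteins in and out of cilia, CEP proteins build, duplicate and anchor the centriole, and many CFAP proteins belong to the axoneme of motile cilia and sperm flagella.

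Single oocytes of Bos taurus from abattoir ovaries, denuded, were sequenced after amplification of their polyadenylated mRNA. The sources name no treatment that differed between groups, but collection did differ with oocyte stage. Fully grown oocytes were first aspirated from follicles visible at the surface. Growing oocytes were then freed by slicing the ovarian cortex in medium with cilostamide, a phosphodiesterase inhibitor, heparin and antibiotics. Recovered oocytes were washed in that medium. The labels do not give the route, which may vary with diameter. The oocytes fell into 8 size groups by measured diameter, and those that passed the study's quality control included 21 of < 60 μm, 25 of 60-69 μm, 23 of 70-79 μm, 24 of 80-89 μm, 21 of 90-99 μm, 18 of 100-109 μm, 19 of 110-119 μm and 14 of > 120 μm. Libraries were made in 2 replicates, 97 oocytes in replicate 1 (reads of 150 bp) and 68 in replicate 2 (75 bp), so library batch and read length cannot be told apart. The labels name no animal, breed or age, and the values tested were counts summed over the oocytes of each group and replicate (16 sums), so p-values measure only the spread between these sums, which may be technical.

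Oocytes carried 277126 to 8038061 counts. The smallest sums in oocytes were the < 60 μm sum of replicate 1, with 3 oocytes, and the > 120 μm sum of replicate 2, with 4 oocytes. In replicate 1 the median depth was 627581 counts per oocyte at 100-109 μm and 2775303 at 110-119 μm, whereas in replicate 2 the same groups had medians of 1352974 and 1332591. A single oocyte held 52.9% of the counts of the 100-109 μm sum of replicate 1. In that replicate 38.4% of all 14087 genes tested differed by more than 1 log2 unit between 100-109 and 110-119 μm, against 12.3% in replicate 2. The counts of genes called along the diameter and between these groups are given with and without each of these sums of replicate 1.

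The oocyte markers BMP15, BTG4, BCAR4, CPEB1 and AURKC were detected in every analysed oocyte, and their summed level had a group median between 4603 CPM (counts per 1000000 counts of the library) at < 60 μm and 8751 CPM at > 120 μm. Of 14 somatic markers, 10 had a count in fewer than 30% of oocytes (CD34 and COL1A1 in 2 oocytes each), and 4, COL1A2, COL4A1, ACTA2 and CD44, had one in more than 80%. The summed level of the 14 somatic markers ranged from 2.07 to 50.0 CPM per oocyte at < 60 μm (median 13.4) and from 13.6 to 72.6 CPM at > 120 μm (median 35.3). At 100-109 μm its median was 48.7 CPM and at 110-119 μm 26.4 CPM. The part of these transcripts in the results below was not tested.

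All 70 genes passed the filter on low counts, and 41 had at least 1 count in every analysed oocyte. The least often detected were CFAP221 (65.5% of oocytes), CFAP299 (73.3%), CFAP61 (77.0%) and CFAP58 (78.8%), all of the motile axoneme. CPM is a share of an oocyte's counts, not an amount per oocyte, and since transcript length was not used, levels are compared only within a gene. The replicates differed in level: 24 genes had the higher CPM in replicate 2 in all 8 size groups and 7 genes in replicate 1. The mean log2 difference of replicate 2 minus replicate 1 ran from -1.76 for CFAP100 to 2.98 for CEP170. Levels are therefore given per replicate.

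The first question was how the genes changed as oocytes grew. Along the diameter 26 of the 70 genes were called (37.1%), 12 upregulated and 14 downregulated, against 34.8% of the 14087 genes tested, 15.4% upregulated and 19.4% downregulated. The share of called genes was thus near that of the transcriptome with all 16 sums in the fit. The split by direction also moved: 15 genes rose and 7 fell after thinning each oocyte to 250000 counts (31.9% called, against 41.2% of all genes), 12 and 7 with all 179 oocytes (27.1% against 32.1%), 13 and 9 without the filter (31.4% against 27%), and 16 and 6 without the 100-109 μm sum of replicate 1 (31.4% against 32.4%). Without the 110-119 μm sum of replicate 1, 11 rose and 9 fell (28.6% against 31.4%). The slope, in log2 fold change per 10 μm of diameter, had a median of -0.01 over the 70 genes and of -0.02 over all genes, and it ran from -0.25 for CFAP299 to 0.27 for CETN3. Here and below, calls are p values under 0.05 from edgeR's quasi-likelihood test after Benjamini-Hochberg correction over all genes (adjusted p), a slope is given with its standard error (SE), and a fold is the fitted one over the 72.2 μm between the mean diameters of the smallest and the largest group.

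**Figure D1:**
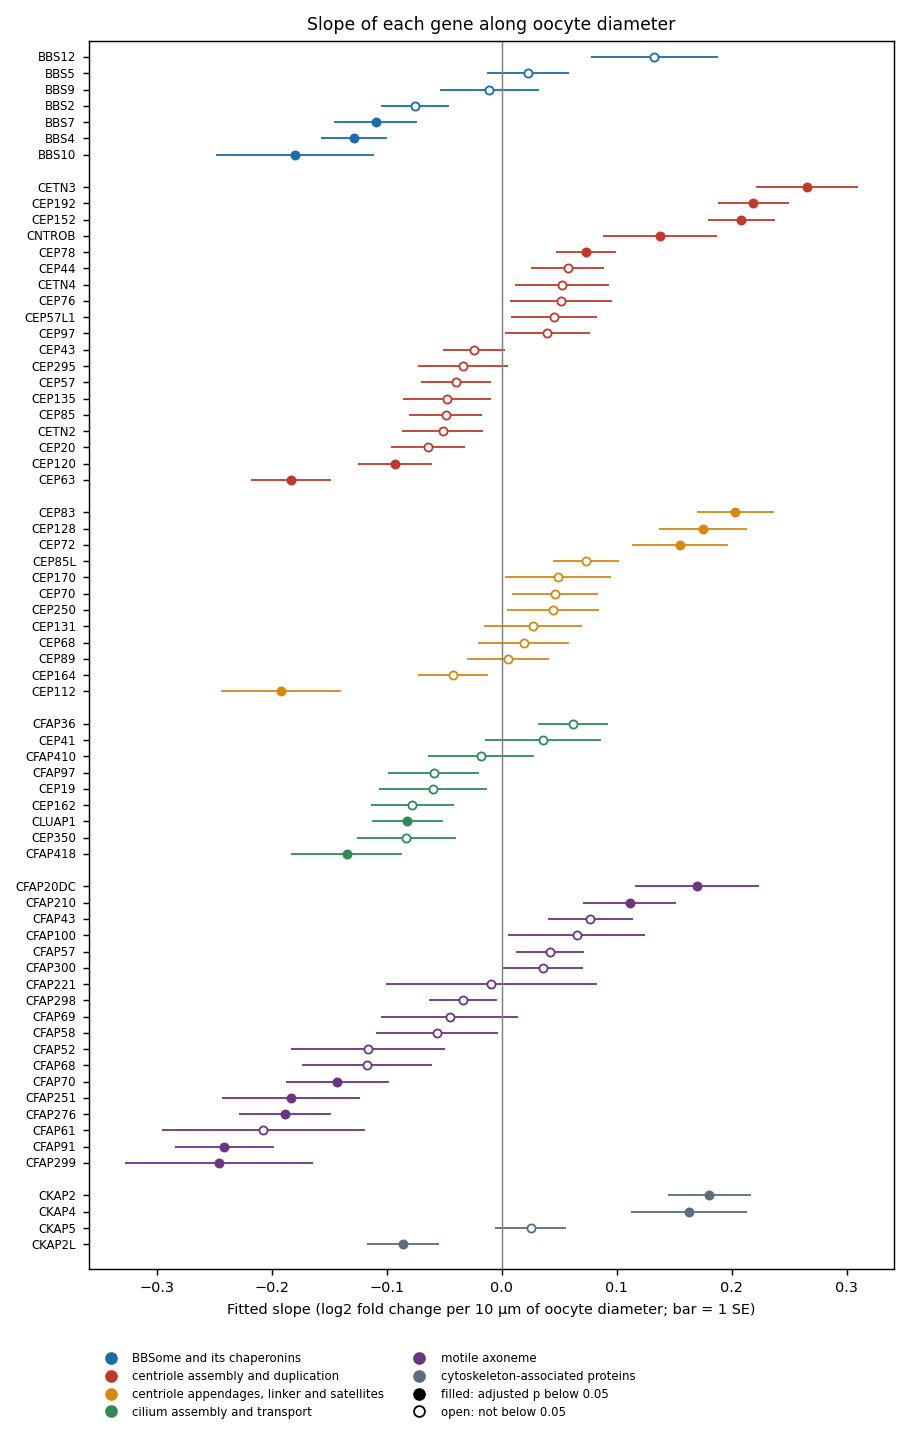
Slope of 69 of the 70 genes along oocyte diameter (x axis, log2 fold change per 10 μm) with 1 SE as a bar, grouped by role and coloured by it; filled points have an adjusted p below 0.05 in edgeR's quasi-likelihood test over all genes. Filled points lie on both sides of 0 in the centriole, appendage, axoneme and CKAP groups, and CETN3 has the highest slope (0.27) and CFAP299 the lowest (-0.25).

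Within the replicates alone, 10 genes were called in replicate 1 and 12 in replicate 2, with 6 in both, against 18.1% and 18.2% of all genes. The share of all genes called in both replicates was not counted. The slope had the same sign in both replicates for 55 of the 70 genes, and the share over all genes was not counted. It did so for 26 of the 26 called, but these calls came from a fit over both replicates, which favours genes whose slopes agree. edgeR's test of a slope difference between the replicates called 0 of the 70 genes and 0.0% of all genes, with 11 of the 70 genes and 13% of all genes at an unadjusted p under 0.05. The 26 calls became 11 without the < 60 μm sum of replicate 1, 15 without the 60-69 μm sum of replicate 1, 12 without the > 120 μm sum of replicate 1 and 17 without the > 120 μm sum of replicate 2 (7 and 4, 8 and 7, 7 and 5, and 12 and 5 genes that rose and fell), and without the 70-79 μm sum of replicate 2 13 rose and 6 fell. In the first 4 of these fits 15.7%, 21.4%, 17.1% and 24.3% of the 70 genes were called, against 27.8%, 27.7%, 24.4% and 26.6% of all genes. For 10 genes the call was kept with each of the 16 sums left out: CETN3, CEP192, CEP152, CEP83, CKAP2 and CEP128, which rose, and CFAP91, CEP63, CFAP276 and BBS4, which fell. Of these, CFAP276 was not called after thinning, and all but CFAP91, CEP63, CFAP276 and CKAP2 were not called without the replicate block. The share of all genes that kept a call with each of the 16 sums left out was not counted.

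Among the 7 BBSome genes, 3 fell with diameter, none rose, and 4 were not called. The share called was 42.9%, against 34.8% of all genes (15.4% upregulated and 19.4% downregulated). Beside leaving out sums, 8 alternatives were fitted along the diameter, of which BBS4 was called in 7 and BBS7 and BBS10 in 3 each. BBS4, a subunit of the BBSome, went in replicate 1 from 246.1 CPM at < 60 μm through 281.8, 218.9, 147.8, 161.7, 143.6 and 156.5 to 116.5 CPM at > 120 μm. In replicate 2 the 8 values were 219.5, 164.4, 165.8, 141.2, 122.7, 120.6, 128.3 and 130.9 CPM. Within each replicate every sum from 80 μm on lay below the sums of the 3 smaller groups. Here and for the genes below, the diameter at which groups separated was chosen after the gene's values were seen. Such separations were not counted over all genes. The slope was -0.13 (SE 0.03, adjusted p = 0.00211), a 1.90-fold lower fitted level in the largest group. Over single oocytes, log2(CPM + 1) of BBS4 and diameter had a Pearson correlation of -0.52 in replicate 1 (n = 97) and -0.63 in replicate 2 (n = 68), and oocytes of a replicate share their library batch.

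BBS7, another BBSome subunit, fell with a slope of -0.11 (SE 0.04, adjusted p = 0.0249), from 22.8 to 9.61 CPM in replicate 1 and from 23.4 to 15.8 CPM in replicate 2 between the smallest and the largest group. In replicate 2 BBS7 was highest at 60-69 μm, at 35.3 CPM. Over single oocytes, its log2(CPM + 1) and diameter had a Pearson correlation of -0.19 in replicate 1 and 0.06 in replicate 2. BBS10, a chaperonin-like factor needed to assemble the BBSome, fell with a slope of -0.18 (SE 0.07, adjusted p = 0.0482). Its CPM in replicate 1 was 24.3 at < 60 μm and between 2.87 and 14.2 in the other groups, and in replicate 2 it ranged from 2.90 to 17.1 with the 70-79 μm group highest, so small and large oocytes overlapped. The subunits BBS2, BBS5 and BBS9 and the chaperonin-like BBS12 were not called. BBS12 had the highest slope of the group, 0.13 (SE 0.06, adjusted p = 0.0699), and was called in 5 of the 8 alternatives and in 5 of the 16 fits with a sum left out (adjusted p from 0.00319 to 0.452), and BBS2 had -0.08 (SE 0.03, adjusted p = 0.0539).

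Centriole assembly and duplication was the largest group, with 19 genes, of which 5 rose, 2 fell and 12 were not called (36.8% called, against 34.8% of all genes). Both scaffolds that recruit the duplication kinase PLK4, CEP192 and CEP152, rose. CEP192, which also organises pericentriolar material, had 26.1, 23.7, 31.5, 34.9, 36.3, 43.5, 55.4 and 58.4 CPM from the smallest to the largest group in replicate 1. In replicate 2 it had 53.7, 99.1, 74.3, 96.0, 127.6, 152.6, 192.8 and 215.7 CPM. Within each replicate the 3 largest groups held the 3 highest values. Its slope was 0.22 (SE 0.03, adjusted p = 3.17e-05), a 2.99-fold higher fitted level.

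CEP152, the partner that hands PLK4 to the mother centriole, stayed between 28.2 and 42.6 CPM up to 100-109 μm in replicate 1 and then stood at 78.2 and 73.8 CPM. In replicate 2 it stood between 49.5 and 98.7 CPM up to 100-109 μm and then at 198.5 and 154 CPM. In both replicates the groups above 110 μm were thus above every smaller group. The slope was 0.21 (SE 0.03, adjusted p = 3.01e-05), a 2.84-fold higher fitted level. In contrast CEP63, which binds CEP152 at the centriole, fell: in replicate 1 its values were 139.6, 110.0, 67, 63.5, 64.3, 46.7, 84 and 40.6 CPM, and in replicate 2 116, 96.7, 95.5, 126, 81.7, 59.8, 55.7 and 48.5 CPM. The slope of CEP63 was -0.18 (SE 0.04, adjusted p = 0.000579), a 2.50-fold lower fitted level, and it is 1 of the 4 genes called also without the replicate in the model.

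**Figure D2:**
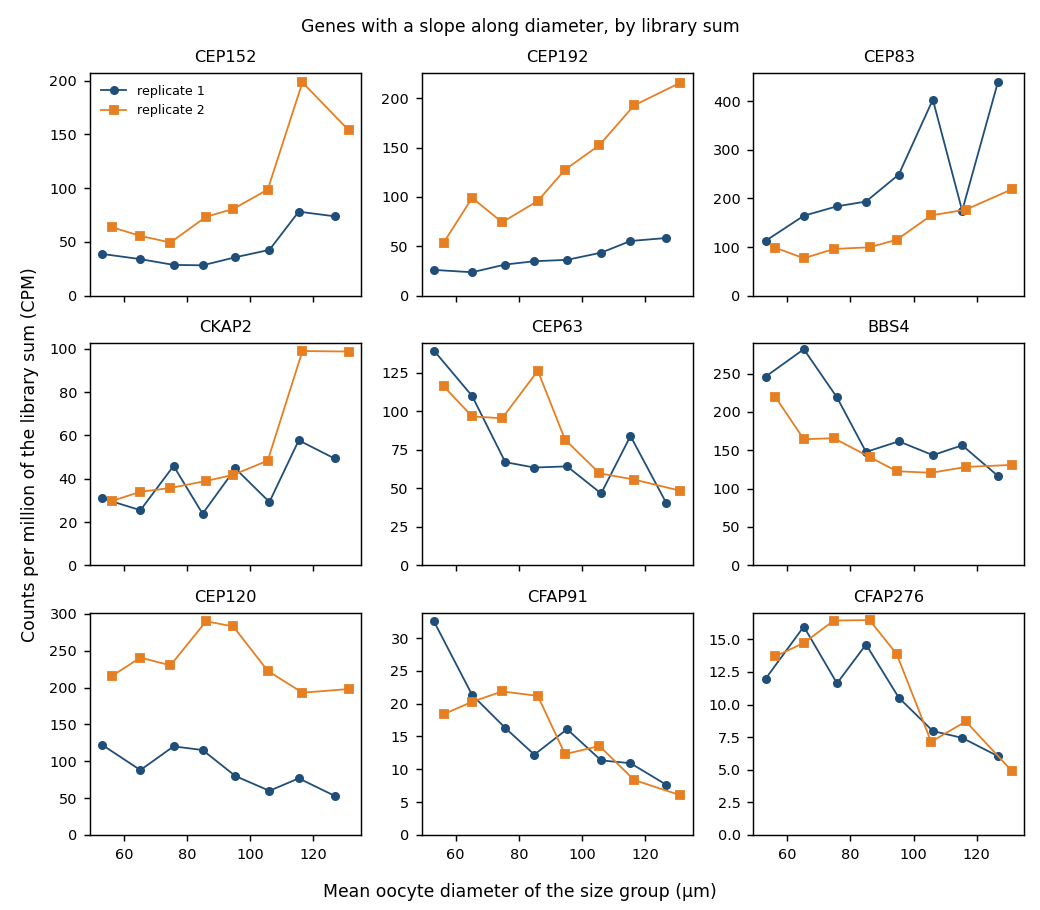
Level of 9 genes called along the diameter (y axis, CPM of each library sum, from 0) against the mean diameter of the size group (x axis, μm), replicate 1 as blue circles and replicate 2 as orange squares. CEP152, CEP192, CEP83 and CKAP2 rose, and CEP63, BBS4, CEP120, CFAP91 and CFAP276 fell; CEP83 dips at 110-119 μm in replicate 1 (174.6 CPM between 403 and 439.1).

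The centrins are small calcium-binding proteins of the centriole lumen. CETN3 had the highest slope of the 70 genes, 0.27 (SE 0.04, adjusted p = 0.000163), a 3.78-fold higher fitted level. In replicate 1 it had 337.3, 345.4, 312.3, 428.95, 584.2, 410.6, 2723 and 831.4 CPM, and in replicate 2 780.2, 1258, 835, 1903, 1767, 1859, 2442 and 2135 CPM. Replicate 2 was at or above 1767 CPM from 80 μm on, whereas in replicate 1 a single group, 110-119 μm, reached that level. CETN2 (slope -0.05, SE 0.04, adjusted p = 0.272) and CETN4 (slope 0.05, SE 0.04, adjusted p = 0.339) were not called along the diameter. CETN2 in replicate 1 was 405 CPM at < 60 μm, 179.8 CPM at 100-109 μm and 526 CPM at 110-119 μm, and in replicate 2 it lay between 206 and 304 CPM in all groups. CETN1, an intronless centrin gene close in sequence to CETN2, had 8 counts in 6 oocytes, and how reads with several alignments were counted is not given in the sources used here.

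The other upregulated genes of centriole assembly were CNTROB, which encodes the daughter centriole protein centrobin (slope 0.14, SE 0.05, adjusted p = 0.0372), and CEP78, a mother centriole protein (slope 0.07, SE 0.03, adjusted p = 0.038). CNTROB went from 5.73 CPM at < 60 μm to 20.9 CPM at 100-109 μm in replicate 1, and lay between 3.87 and 9.01 CPM in replicate 2, where the small and large groups overlapped. CEP120, an elongation factor of the centriole, fell (slope -0.09, SE 0.03, adjusted p = 0.0317), from 122 to 53.2 CPM in replicate 1 and from 216 to 198.03 CPM in replicate 2. The 10 further genes that were not called, besides CETN2 and CETN4, were CEP20, CEP43, CEP44, CEP57, CEP57L1, CEP76, CEP85, CEP97, CEP135 and CEP295, with slopes from -0.06 for CEP20 to 0.06 for CEP44. The cartwheel-associated CEP135 and the capping protein CEP97 are among them.

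Of the 12 genes of centriole appendages, linker and satellites, 3 rose, 1 fell and 8 were not called (33.3% called, against 34.8% of all genes). CEP83, which anchors the distal appendages that dock the centriole to membrane, had 112.6, 164.3, 183.7, 193.4, 249.02, 403, 174.6 and 439.1 CPM in replicate 1. In replicate 2 it had 98.4, 76.9, 96, 99.4 and 114.9 CPM up to 90-99 μm and 176.8 and 218.8 CPM above 110 μm. In replicate 2 the 3 largest groups lay above all smaller ones, and in replicate 1 the 110-119 μm group lay below its neighbours on both sides. The slope was 0.20 (SE 0.03, adjusted p = 0.000159), a 2.77-fold higher fitted level. The other distal appendage genes, CEP89 (slope 0.01, SE 0.04) and CEP164 (slope -0.04, SE 0.03), were not called.

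CEP128, a subdistal appendage protein, rose with a slope of 0.18 (SE 0.04, adjusted p = 0.00159). In replicate 1 it lay between 105 and 138 CPM up to 100-109 μm, then at 469 CPM at 110-119 μm and 308 CPM at > 120 μm. Single oocytes of these 2 sums reached 1219 and 1600.5 CPM, with medians of 279.3 and 264.3 CPM. In replicate 2 CEP128 was lower in 7 of the 8 groups and lay between 83.2 CPM at 60-69 μm and 156 CPM at > 120 μm. CEP128 stands on 2 lines of the count table; with the lines kept apart, an alternative chosen after seeing the data, the slope was 0.20 (SE 0.04) for the line with 49551 counts and 0.08 (SE 0.03, adjusted p = 0.0823) for the line with 7121 counts.

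CEP72, a centriolar satellite protein, rose with a slope of 0.15 (SE 0.04, adjusted p = 0.00764), from 17.5 CPM to 99.0 CPM in replicate 1 and from 20.8 to 38.0 CPM in replicate 2 between the smallest and the largest group. CEP112, a coiled-coil protein, was the gene of this group that fell (slope -0.19, SE 0.05, adjusted p = 0.00774), from 13.1 to 2.63 CPM in replicate 1 and from 9.30 to 5.59 CPM in replicate 2. Both calls were lost without the < 60 μm sum of replicate 1 and without the > 120 μm sum of replicate 1. CEP68 and CEP250, which tie the centriole pair together, the subdistal appendage gene CEP170, the satellite gene CEP131 and CEP70 and CEP85L had slopes from 0.02 for CEP68 to 0.07 for CEP85L and were not called. CEP85L (adjusted p = 0.0525) was called in 5 of the 8 alternatives and in 7 of the 16 fits with a sum left out (adjusted p from 0.00737 to 0.748). CEP170 ran from 51.1 to 131.95 CPM in replicate 1 and from 399 to 1087 CPM in replicate 2, without overlap between the replicates.

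Cilium assembly and transport held 10 genes, of which 2 fell, none rose and 8 were not called (20.0% called, against 34.8% of all genes). CLUAP1, a subunit of the intraflagellar transport complex IFT-B, had a slope of -0.08 (SE 0.03, adjusted p = 0.0463), with 174 CPM at < 60 μm and 119.5 CPM at > 120 μm in replicate 1 and 109 and 98.3 CPM in replicate 2. CFAP418 had a slope of -0.13 (SE 0.05, adjusted p = 0.0368), with 13.1 and 6.83 CPM in replicate 1 and 10.4 and 8.62 CPM in replicate 2. In replicate 2 the range over the 8 groups was 79.3 to 109 CPM for CLUAP1 and 7.26 to 13.4 CPM for CFAP418. Those not called included CEP350, CEP162 (transition zone), CEP19, CEP41 (tubulin glutamylation), CFAP97, CFAP410 and CFAP36, with slopes from -0.08 for CEP350 to 0.06 for CFAP36.

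The 18 genes of the motile axoneme had 5 downregulated, 2 upregulated and 11 uncalled members (38.9% called, against 34.8% of all genes). CFAP91, a radial spoke protein, had 32.6, 21.3, 16.3, 12.2, 16.1, 11.4, 10.9 and 7.65 CPM in replicate 1 and 18.4, 20.3, 21.9, 21.2, 12.3, 13.6, 8.37 and 6.06 CPM in replicate 2. The > 120 μm group was the lowest and the 110-119 μm group the second lowest in both. The slope was -0.24 (SE 0.04, adjusted p = 0.000307), a 3.35-fold lower fitted level. CFAP276, a protein of the axonemal microtubule doublets, lay between 10.5 and 16.5 CPM up to 90-99 μm and between 4.89 and 8.71 CPM from 100 μm on over both replicates, so the sums did not overlap (slope -0.19, SE 0.04, adjusted p = 0.00128). The divide at 100 μm was chosen after its values were seen. The call was lost when oocytes were thinned to 250000 counts (adjusted p = 0.0612). Single oocytes did overlap: CFAP276 had a median of 10.5 CPM at 90-99 μm and 11.4 CPM (3.97 to 17.2) at 100-109 μm in replicate 1, where 1 oocyte held 52.9% of the counts, and medians of 8.85 and 5.25 CPM in replicate 2.

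CFAP251, like CFAP91 a radial spoke protein, also fell (slope -0.18, SE 0.06, adjusted p = 0.0241), as did CFAP70, an outer dynein arm-associated protein (slope -0.14, SE 0.04, adjusted p = 0.0185), and CFAP299 (slope -0.25, SE 0.08, adjusted p = 0.0257). CFAP70 went from 19.6 to 4.83 CPM in replicate 1 between the smallest and the largest group (slope -0.19 within that replicate). In replicate 2 it was highest at 110-119 μm, at 18.2 CPM, and lowest at > 120 μm, at 5.12 CPM, with a slope of -0.02 (adjusted p = 0.863 in edgeR's test). CFAP299 lay between 0.718 and 7.5 CPM and CFAP251 between 1.00 and 8.97 CPM over the 16 sums, so both rest on few counts (1158 and 1506 in all oocytes). The third radial spoke gene, CFAP61, had a slope of -0.21 (SE 0.09, adjusted p = 0.0757) and was not called. The genes that rose were CFAP20DC (slope 0.17, SE 0.05, adjusted p = 0.0206), from 3.31 to 9.46 CPM in replicate 1 and from 10.7 to 15.1 CPM in replicate 2, and CFAP210, a microtubule inner protein (slope 0.11, SE 0.04, adjusted p = 0.0388). CFAP43, CFAP52, CFAP57, CFAP58, CFAP68, CFAP69, CFAP100, CFAP221 and the dynein assembly factors CFAP298 and CFAP300 were not called, with slopes from -0.12 for CFAP68 to 0.08 for CFAP43.

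CFAP58 followed another course. In replicate 1 it had 8.45, 5.55, 5.12, 2.10, 1.52, 1.76, 6.81 and 7.42 CPM, and in replicate 2 6.66, 5.70, 4.37, 2.46, 2.09, 2.41, 6.81 and 3.73 CPM. The 3 groups from 80 to 109 μm held the lowest values in both replicates. It was chosen after its values were seen, its slope was -0.06 (SE 0.05, adjusted p = 0.441), and no comparison of groups called it, although the rise from 100-109 to 110-119 μm was called in 3 of 9 alternatives other than leaving out a sum (lowest adjusted p = 0.0028).

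Of the 4 CKAP genes, 2 rose, 1 fell and 1 was not called, against 34.8% of all genes called. CKAP2, a spindle microtubule protein, had 29.8, 34, 35.7, 39, 41.8, 48.4, 99 and 98.8 CPM in replicate 2. In replicate 1 the values were 30.9, 25.5, 45.9, 23.8, 44.7, 29.2, 57.8 and 49.4 CPM. The groups above 110 μm were the highest in both replicates, and the slope was 0.18 (SE 0.04, adjusted p = 0.00083). Its paralog CKAP2L, a mitotic spindle protein, fell (slope -0.09, SE 0.03, adjusted p = 0.0409), from 100.0 to 46.0 CPM in replicate 1 and from 87.3 to 69.9 CPM in replicate 2. CKAP4, which despite its name encodes a membrane protein of the endoplasmic reticulum, rose (slope 0.16, SE 0.05, adjusted p = 0.0173), and the microtubule polymerase CKAP5 was not called (slope 0.03, SE 0.03, adjusted p = 0.555). In replicate 1 CKAP4 was lowest at < 60 μm (3.09 CPM) and highest at 100-109 μm (25.5 CPM). In replicate 2 it was lowest at 90-99 μm (10.8 CPM) and highest at > 120 μm (28.2 CPM). Over single oocytes, its log2(CPM + 1) and diameter had a Pearson correlation of 0.02 in replicate 1 and 0.42 in replicate 2.

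**Figure D3:**
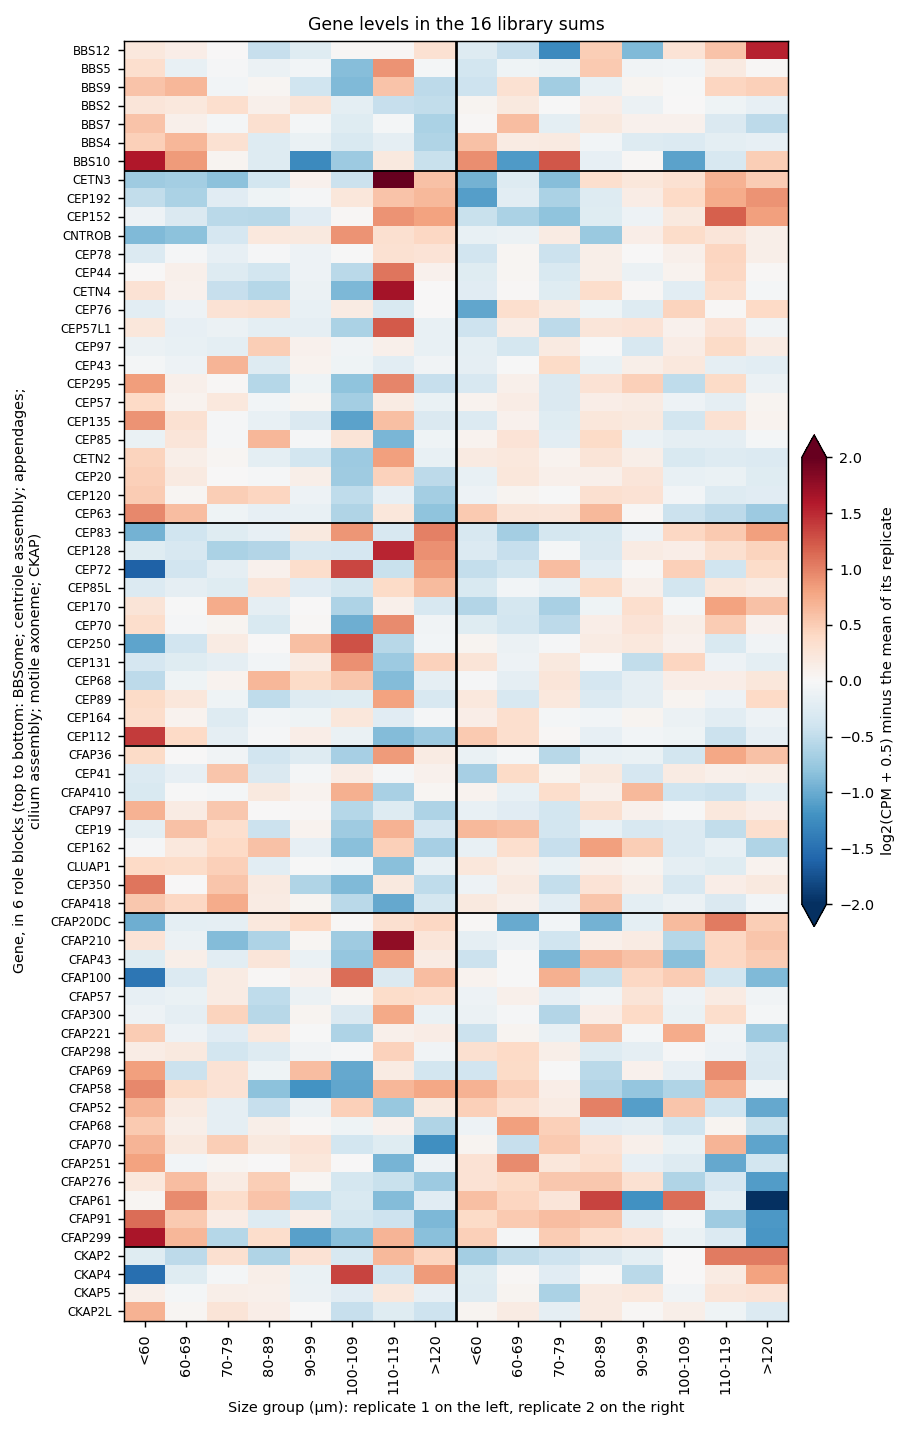
Level of 69 of the 70 genes (rows, in 6 role blocks) in the 16 library sums (columns, replicate 1 left and replicate 2 right of the black line), as log2(CPM + 0.5) minus the gene's mean over the same replicate; red is above and blue below that mean, and the colours stop at 2 and -2. The 110-119 μm column of replicate 1 holds the highest value of 21 genes and the 100-109 μm column beside it the lowest of 22. The < 60 μm column of replicate 1 also holds the highest value of 21 genes.

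The calls differed in how far they depended on single sums. Beside the 10 genes named above, CEP72 and CEP112 were called with 14 of the 16 sums left out in turn, CKAP4 with 13, CNTROB and CFAP20DC with 12, CEP78 with 11, CFAP251 with 10, CFAP299 and CFAP70 with 9 and CFAP210 with 8. BBS7 was called in 7 of these fits, CFAP418 in 5, CEP120 in 4, BBS10 in 3, CKAP2L in 2 and CLUAP1 in 1. Of the 8 other alternatives, CFAP251 was called in 4, CFAP418 in 3, CKAP2L in 2 and CLUAP1 in 1. No called gene changed the sign of its slope in any alternative.

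The size groups also differed in where a gene stood highest. Over the mean of both replicates, 24 of the 70 genes were highest at 110-119 μm and 14 at < 60 μm (34.3% and 20.0%, against 17.0% and 19.3% of all genes), while the lowest level was that of 100-109 μm for 15, of > 120 μm for 14 and of < 60 μm for 13 (21.4%, 20.0% and 18.6%, against 14.4%, 17.2% and 20.9% of all genes). In replicate 1 alone, 21 genes were highest at 110-119 μm and 22 lowest at 100-109 μm (30% and 31.4%, against 18% and 20.1% of all genes). As many as at 110-119 μm, 21, were highest at < 60 μm (30%, against 22.5% of all genes). In replicate 2 alone, 15 were highest at 110-119 μm and 6 lowest at 100-109 μm, and the most frequent lowest group was 70-79 μm with 18 genes (21.4%, 8.57% and 25.7%, against 12.4%, 10.8% and 10.1% of all genes). The most frequent highest group of replicate 2 was 80-89 μm with 16 genes (22.9%, against 12.0% of all genes).

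The 5 comparisons of successive groups asked at which step of growth the genes changed, with the < 60 and 60-69 μm groups joined and the 80-89 and 90-99 μm groups joined. Between 100-109 and 110-119 μm 7 of the 70 genes (10%) were called, 6 upregulated and 1 downregulated in the larger oocytes, against 3.88% of all genes, 1.89% upregulated and 1.99% downregulated. No gene of the 70 was called without the replicate block, with all 179 oocytes or with only these groups in the fit (0.0%, 0.0142% and 0.183% of all genes). The median log2 fold change was 0.33 over the 70 genes and -0.06 over all genes, and the median difference was 0.33 in replicate 1 and 0.11 in replicate 2 (-0.06 and -0.01 over all genes). At an unadjusted p under 0.05 there were 26 genes (37.1%, against 26.0% of all genes). By role, 3 of 19 centriole assembly genes rose (CETN3, CETN4 and CEP295), 1 of 12 appendage and satellite genes fell (CEP72), 1 of 10 cilium assembly genes rose (CFAP36), and 2 of 18 axonemal genes rose (CFAP43 and CFAP210). No BBSome or CKAP gene was called.

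CFAP210 stood at 16.4 CPM at 100-109 μm and 94.1 CPM at 110-119 μm in replicate 1, and at 41.8 and 83.2 CPM in replicate 2. Its log2 fold change was 1.91 (SE 0.39, adjusted p = 0.0319). CFAP36, which binds the small GTPase ARL3, stood at 69.8 and 201 CPM in replicate 1 and at 203.3 and 447.9 CPM in replicate 2 (log2 fold change 1.32, SE 0.29, adjusted p = 0.033). These 2 genes and CFAP43, which had 8.79 and 28.0 CPM in replicate 1 and 20.1 and 48.5 CPM in replicate 2 (log2 fold change 1.49, SE 0.36, adjusted p = 0.0392), had a difference of at least 0.98 log2 units in each replicate. CFAP36 also stands on 2 lines of the count table, with 19383 and 42414 counts.

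The centrins differed mainly in replicate 1. CETN4 stood at 35 CPM at 100-109 μm and 210.1 CPM at 110-119 μm there, and single oocytes ranged from 17.8 to 54.2 CPM (median 39.0, n = 11) and from 69.5 to 513 CPM (median 151.6, n = 12), without overlap. In replicate 2 it stood at 120.4 and 177 CPM, and oocytes of the 2 groups overlapped. The log2 fold change of CETN4 was 1.68 (SE 0.40, adjusted p = 0.0379), with 2.57 in replicate 1 and 0.55 in replicate 2. CETN3 had a log2 fold change of 1.74 (SE 0.42, adjusted p = 0.0396), with 2.73 in replicate 1 and 0.39 in replicate 2, and its oocytes in replicate 1 ranged from 269 to 907 CPM and from 796 to 6514 CPM. CETN2 had 1.55 and 0.04 in the replicates and was not called (log2 fold change 0.88, SE 0.33, adjusted p = 0.108).

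CEP295, which converts new centrioles into centrosomes, stood at 29.8 and 104 CPM in replicate 1 and at 123 and 230.1 CPM in replicate 2 (log2 fold change 1.37, SE 0.38, adjusted p = 0.0483). CEP72 was the downregulated gene, at 139 and 40.2 CPM in replicate 1 and at 40.7 and 22 CPM in replicate 2 (log2 fold change -1.41, SE 0.39, adjusted p = 0.04997). In both replicates its > 120 μm sum, at 99.0 and 38.0 CPM, lay above its 110-119 μm sum. The 139 CPM of the 100-109 μm sum of replicate 1 compares with a median of 84.5 CPM (47.3 to 209.7) over its 11 oocytes. The call of CEP72 at this step was lost without the deepest of these oocytes, after thinning and in 13 of the 16 fits that left out a sum. The call of CEP295 was likewise kept in 3 of these 16 fits, and those of CFAP43, CETN3, CETN4, CFAP36 and CFAP210 in 9, 10, 11, 12 and 14. CEP295, CETN4, CFAP36 and CFAP43 were called here and not along the diameter.

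**Figure D4:**
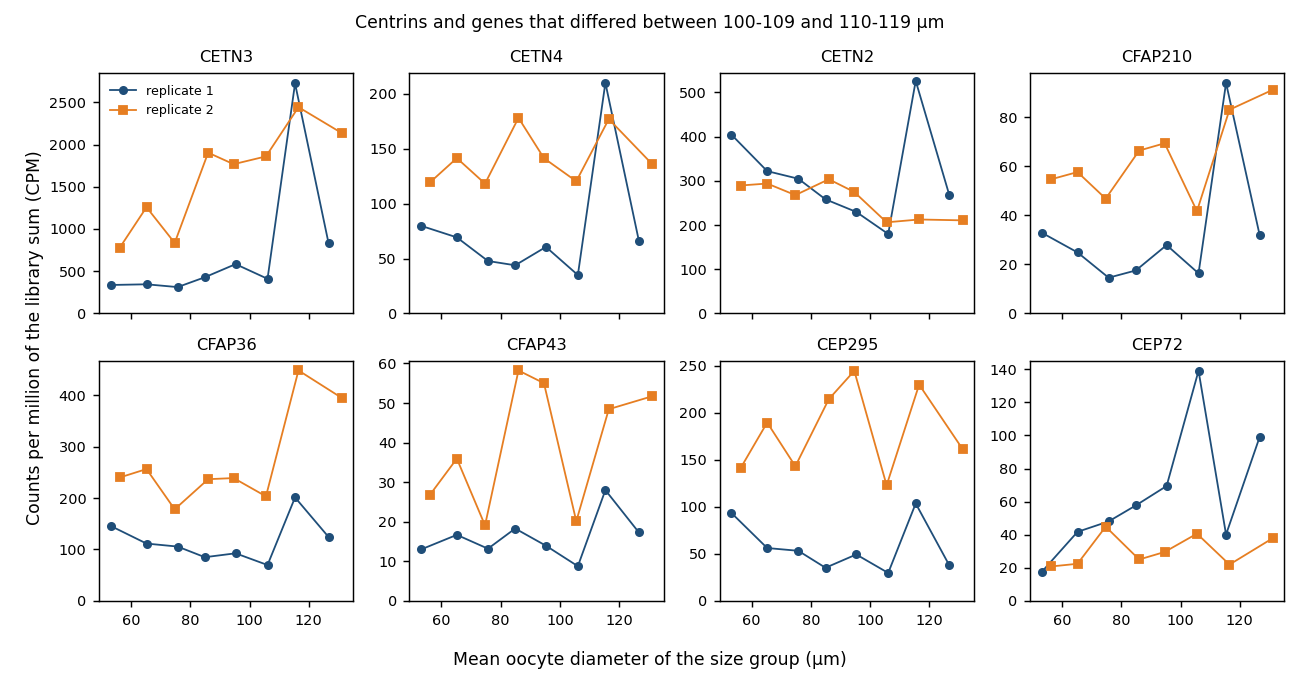
Level (y axis, CPM of each library sum, from 0) of the 3 centrins and of the 5 further genes called between 100-109 and 110-119 μm, against the mean diameter of the size group (x axis, μm), replicate 1 as blue circles and replicate 2 as orange squares. In replicate 1 CETN3, CETN4, CETN2 and CFAP210 are highest at 110-119 μm and lower again at > 120 μm; CEP72 has its replicate 1 peak of 139 CPM at 100-109 μm.

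The differences at this step were larger in replicate 1, whose oocytes also differed in depth between the groups (median 627581 against 2775303 counts). The absolute log2 difference was above 1 for 34 of the 70 genes (48.6%) in replicate 1 and for 7 (10%) in replicate 2, against 38.4% and 12.3% of all genes, and 55 genes had the larger absolute difference in replicate 1. In both replicates 35 genes were higher at 110-119 μm and in both 21 were lower. With every oocyte thinned to 250000 counts 12 genes were called (7.24% of all genes), and without the deepest oocyte of the 100-109 μm sum of replicate 1, an alternative chosen after seeing the data, 7 were called, all upregulated and 6 of them the same genes, and the downregulated CEP72 was no longer among them (3.39% of all genes were called). No gene was called without the 100-109 μm sum of replicate 1, and none without the 110-119 μm sum of replicate 1. The count was 1 without either 60-69 μm sum, 2 and 3 without the 80-89 μm sums of replicates 1 and 2, 12 without the < 60 μm sum of replicate 1, and 11 and 13 without the 100-109 and 110-119 μm sums of replicate 2. The share of all genes called moved with it: 0.525% and 0.54% without the 60-69 μm sums, 0.603% and 0.987% without the 80-89 μm sums, 8.16% without the < 60 μm sum of replicate 1, and 9.48% and 10.7% in the last 2 fits.

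**Figure D5:**
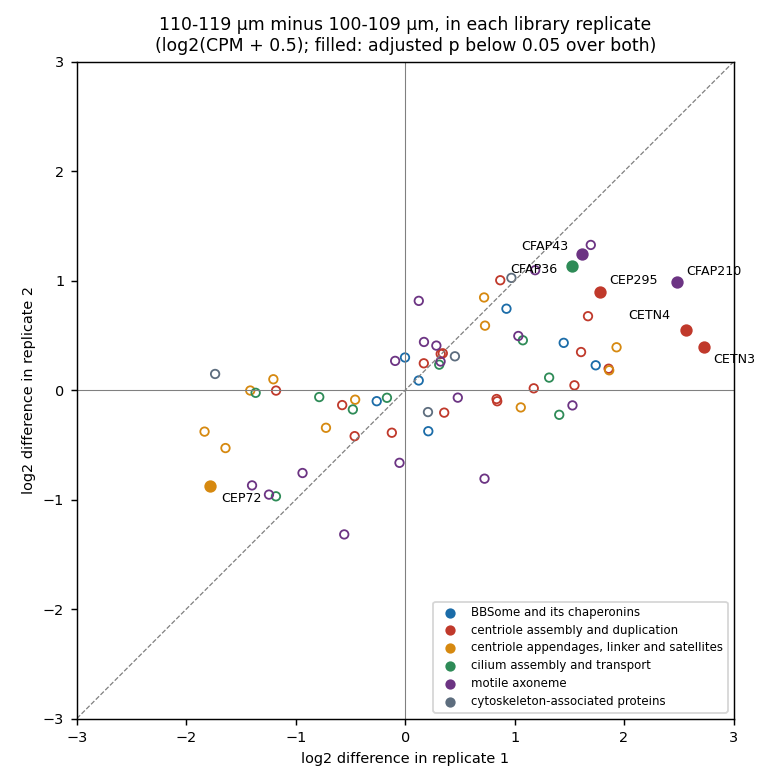
Log2 difference of 110-119 μm minus 100-109 μm for each of the 70 genes in replicate 1 (x axis) and replicate 2 (y axis), from log2(CPM + 0.5) of the library sums; colours mark the role, filled points are the 7 called genes and the dashed line marks equal differences. CETN3 and CETN4 lie far right at 2.73 and 2.57 in replicate 1 but at 0.39 and 0.55 in replicate 2, whereas CFAP36 and CFAP43 lie closer to the dashed line.

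The other comparisons called 0 of the 70 genes by edgeR. Over all genes the share called was 0.135% between < 70 and 70-79 μm, 0.0% between 70-79 and 80-99 μm, 0.497% between 80-99 and 100-109 μm (0.433% higher and 0.0639% lower) and 0.0071% between 110-119 and > 120 μm. At an unadjusted p under 0.05 there were 2, 5, 11 and 11 of the 70 genes in these comparisons (2.86%, 7.14%, 15.7% and 15.7%), against 7.55%, 5.54%, 16.1% and 11.1% of all genes. DESeq2 called 0, 0, 2 and 0 of the 70 genes in these 4 comparisons, 29 along the diameter and 21 between 100-109 and 110-119 μm, against 4.64%, 38.0% and 19.9% of all genes between 80-99 and 100-109 μm, along the diameter and between 100-109 and 110-119 μm. The smallest adjusted p among the 4 comparisons was 0.0826, for CFAP43 between 80-99 and 100-109 μm (log2 fold change -1.21, SE 0.32), where it was lower in both replicates (-0.83 and -1.47). The 11 genes between 110-119 and > 120 μm included CETN3, CETN4, CEP295 and CFAP210 with negative log2 fold changes (-1.17, -1.18, -1.0 and -0.86) and CEP72 and CEP83 with positive ones (1.07 and 0.76). In all, 40 of the 70 genes were called neither along the diameter nor in any comparison. The same share over all genes was not counted. Of all genes, 34.8% were called along the diameter and 3.88% between 100-109 and 110-119 μm.

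Other centrosome and cilium genes of the same tables, in 2 lists that hold symbols from A to C as well, were called at 41.2% and 50.0% along the diameter, against 34.8% of all genes (15.4% upregulated and 19.4% downregulated). Of 17 other centrosome genes, 5 rose and 2 fell. ASPM, a spindle pole protein, had a slope of 0.18 (SE 0.03, adjusted p = 0.000518), CCDC15 0.14 (SE 0.03) and CCDC61, a basal body protein, 0.20 (SE 0.05), whereas CCDC102B had -0.35 (SE 0.05, adjusted p = 2.68e-05) and CCDC138 -0.12 (SE 0.05). Of 18 other cilium genes, 6 rose and 3 fell. The transition zone gene CC2D2A had a slope of 0.34 (SE 0.04, adjusted p = 6.03e-06) and CCDC146 0.21 (SE 0.03), whereas CCDC39, a molecular ruler of the axoneme, had -0.28 (SE 0.06), CCNO -0.13 (SE 0.03) and CPLANE1 -0.16 (SE 0.04). CCDC40, the partner of CCDC39, rose with a slope of 0.28 (SE 0.05, adjusted p = 0.000344) and was named after its value was seen. Between 100-109 and 110-119 μm 2 of the 17 centrosome genes rose and none fell, and of the 18 cilium genes 1 rose and 1 fell, against 3.88% of all genes called. CCDC18 (log2 fold change 1.41, SE 0.36, adjusted p = 0.0431) was a centrosome gene that rose, and CDK20, a kinase, was the cilium gene that fell (-1.38, SE 0.38, adjusted p = 0.0479). CCP110, the partner of CEP97 in capping centrioles, also rose (log2 fold change 1.30, SE 0.35, adjusted p = 0.0451).

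A further 14 genes of the same families stand in the study's list of lowly expressed genes: BBS1, CEP170B, CETN1, CFAP65, CFAP73, CFAP74, CFAP77, CFAP95, CFAP97D1, CFAP99, CFAP107, CFAP126, CFAP157 and CFAP206. They had between 2 counts (CFAP107) and 248 counts (CFAP95) over all analysed oocytes and were detected in 2 to 42 oocytes. The filter kept 6 of them, and edgeR and DESeq2 called 0 of these along the diameter (edgeR had 0 at an unadjusted p under 0.05). BBS1, the subunit that binds cargo for the BBSome, had 121 counts in 37 oocytes, while BBS2, BBS4, BBS5 and BBS9 had at least 1 count in every oocyte and BBS7 in 96.4%.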

How the data were processed

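Polyadenylated mRNA of single bovine oocytes was amplified and sequenced. The authors trimmed reads with Trim Galore (version 0.6.6, also in the submitters' processing notes), aligned them with HISAT2 to ARS-UCD1.2 (bosTau9) and counted them per gene with SeqMonk. They deposited these raw counts, not corrected for batch, with a column for each oocyte, and all columns were used. How strand, overlapping genes and reads with several alignments were treated is not given in the sources used here, so genes that overlap or share sequence are uncertain. Oocytes that passed the study's quality control entered (97 and 68 in the replicates), and all 179 in an alternative. Lines of 1 gene ID were summed (9 of the 70 genes stand on 2 lines). Symbols came from shortened supplementary lists. No genome coordinates or sequences are given. The counts cover all 70 genes, but 1 of them is not reported here by name.

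Counts were summed per size group and replicate (16 sums). Genes were kept by filterByExpr (minimum count 10, minimum total 15), which left 14087. TMM, a model of 8 groups with a replicate block, and the quasi-likelihood test of edgeR (version 4.0.16) with Benjamini-Hochberg adjustment over all genes were used, with calls under 0.05. The slope was a contrast of the group coefficients weighted by mean diameter, and the SE was the effect divided by the square root of F. Differences per replicate used log2(CPM + 0.5). The 28 pairs of sums of replicate 1 deviated together from their group means (correlations 0.398 to 0.694, median 0.579), and the replicate is a library batch per the study's methods, so its number was taken as a block. Named genes were, per test, up to 10 called genes in each direction of the same sign in both replicates, the highest and lowest slope of each role, the centrins, and up to 3 genes in each direction of the other lists. The genes, roles and lists were chosen with earlier results of these data known. Alternatives were no block, RLE factors, DESeq2 (version 1.42.0), no filter, single oocytes as units, all 179 oocytes, thinning to 250000 counts, fits of the compared groups alone, and each sum left out. The work was done in R 4.3.3 and Python 3.11.15 (pandas 2.3.3, numpy 2.4.6, matplotlib 3.10.9 and scipy 1.17.1).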

Additional observations from a re-analysis of the deposited data

How the results depend on the processing

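The counts of called genes moved with the treatment of the replicate and with the unit. Without the replicate block, 4 genes were called along the diameter in place of 26 (7.68% of all genes), and 0 in place of 7 between 100-109 and 110-119 μm (0.0% of all genes). In the other 4 comparisons the count was 0 with the block and could not fall. There the genes at an unadjusted p under 0.05 in edgeR's test went from 2, 5, 11 and 11 with the block to 0, 1, 1 and 1 without it. The share of all genes called went from 0.135%, 0.0%, 0.497% and 0.0071% to 0.0% in each. With single oocytes as units, which share animals and batches the labels do not name, 40 genes were called along the diameter and 6, 2, 3, 37 and 6 in the 5 comparisons from the smallest step to the largest, against 57.7% of all genes along the diameter and 7.8%, 2.66%, 6.18%, 37.0% and 4.71% in the comparisons. Between 80-99 and 100-109 μm 1 gene was called without a filter, 2 by DESeq2 and 4 with only the compared groups in the fit, in place of 0 (2.02%, 4.64% and 7.53% of all genes). Between 100-109 and 110-119 μm 14 were called without a filter, 21 by DESeq2, 12 after thinning, 0 with all 179 oocytes and 0 with only the compared groups, against 7.33%, 19.9%, 7.24%, 0.0142% and 0.183% of all genes; the 7 genes were among the 14, the 21 and the 37, and 5 of them among the 12. With each sum left out in turn the count ran from 11 to 26 along the diameter, from 0 to 13 between 100-109 and 110-119 μm, from 0 to 3 between 110-119 and > 120 μm, from 0 to 1 between < 70 and 70-79 μm, and stayed at 0 in the other 2 comparisons. Over all genes the share called ran from 24.4% to 35.1% along the diameter and from 0.0% to 10.7% between 100-109 and 110-119 μm. It ran from 0.0% to 1.63% between 110-119 and > 120 μm and from 0.0142% to 1.19% between < 70 and 70-79 μm. Between 80-99 and 100-109 μm it ran from 0.0% to 2.34%, and between 70-79 and 80-99 μm it stayed at 0.0%. RLE factors, and along the diameter DESeq2, no filter, thinning and all 179 oocytes, moved no total by more than 1.5 times, but the 14 genes that fell along the diameter became 9 without a filter and 7 both after thinning and with all 179 oocytes. The causes were not tested. With 2 sums per group, depths of 277126 to 8038061 counts per oocyte and groups of as few as 3 oocytes, precision was lower for genes with few counts, as for CFAP299 (1158 counts), whose slope had an SE of 0.08.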

Other observations

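Both lines of a gene ID did not always give the same slope. For CFAP36 the line with 19383 counts rose along the diameter (slope 0.11, SE 0.03, adjusted p = 0.0145) and the line with 42414 counts was not called (slope 0.03, SE 0.03, adjusted p = 0.504). For CEP120 the line with 52352 counts fell (slope -0.10, SE 0.03, adjusted p = 0.0201), and the line with 2147 counts had a slope of 0.10 (SE 0.06, adjusted p = 0.19). For CFAP57, a protein of the inner dynein arms, neither line was called, with slopes of -0.04 (SE 0.04, adjusted p = 0.489; 6183 counts) and 0.06 (SE 0.03, adjusted p = 0.152; 63196 counts). These values are from edgeR's quasi-likelihood test after Benjamini-Hochberg correction, the separate lines were examined after seeing the data, and the difference between the lines was not tested.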
